A study of Mus musculus with 5 samples.

Results

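The genes of activator protein 1 (AP-1) and their immediate early companions were followed in murine lung cancer-associated fibroblasts (CAFs) with and without overexpressed miR-200. The members were listed by name, with earlier results of these data known, although the rule itself uses no value in the table. They are *Fos*, *Fosb*, *Fosl1*, *Fosl2*, *Jun*, *Junb*, *Jund*, *Egr1*, *Atf3* and *Ier2*. These are 10 of the 21835 genes in the table, and all 10 were expressed highly enough to be tested. CAF-vec (2 samples, genotype label WT control) carried the vector alone, and CAF-200 (3 samples, genotype label miR-200 overexpression) carried the cluster from which miR-200b, miR-200a and miR-429 are made. The cells of both groups grew in serum-containing alpha-MEM, and the labels describe lentiviral infection of CAFs with a pLVX-Neo construct followed by G418. The study's methods also give CAFs as the source of the sequenced RNA, but name a hygromycin vector, in 1 place as introduced into normal lung fibroblasts, and RNA in triplicate where 2 CAF-vec samples are present. Neither source says whether the samples of a group came from separate cultures, so the *p* values measure only the spread between these samples, which may be technical.

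AP-1 is a dimer of leucine zipper proteins. A Fos family protein pairs with a Jun family protein, or Jun proteins pair with each other, and the dimer binds short DNA sites in promoters and enhancers. *Fos*, *Fosb*, *Jun*, *Junb*, *Egr1*, *Atf3* and *Ier2* are immediate early genes, which cells switch on within minutes of serum, growth factors or stress, without new protein synthesis. *Fosl1* and *Fosl2* follow more slowly and last longer, and *Jund* is present in resting cells. In fibroblasts AP-1 is known for regulating matrix proteases, their inhibitors and cytokines.

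The mature sequences of the overexpressed miRNAs are shown first, because their seeds (bases 2 to 8 from the 5′ end, in capitals) define what was looked for in the members. miR-200b and miR-429 share a seed, which pairs with CAGTATT, and miR-200a has another, which pairs with CAGTGTT. The sequences are those of RefSeq on GRCm38.p6, where all 3 lie on the minus strand of chromosome 4.
mmu-miR-200b-3p (chr4:156055685-156055706): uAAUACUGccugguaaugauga
mmu-miR-429-3p (chr4:156053916-156053937): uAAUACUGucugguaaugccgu
mmu-miR-200a-3p (chr4:156054911-156054932): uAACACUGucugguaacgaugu

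In the longest annotated 3′-UTR of each member, 7-base seed matches were present in 3 of the 10 members, *Fosb*, *Atf3* and *Jun*. Of the 12060 tested genes with an annotated 3′-UTR, 30.3% held at least 1 of these matches (15.7% the miR-200b/429 match and 20.9% the miR-200a match), in UTRs with a median length of 1174 bases. The matches are printed with 10 bases on each side, the match in capitals, on GRCm38 and the minus strand for all 3 genes. They are descriptions of sequence, and binding was not measured.
*Fosb*, miR-200b/429 match (chr7:19304037-19304063): cacccctgtgCAGTATTatgctatgtc
*Atf3*, miR-200b/429 match (chr1:191170330-191170356): ttatttatccCAGTATTcctagcctgt
*Atf3*, miR-200a match (chr1:191170397-191170423): gtggaatcctCAGTGTTtaatcccact
*Jun*, miR-200b/429 match (chr4:95049924-95049950): cgatctcattCAGTATTaaaggggggt
*Jun*, miR-200a match (chr4:95049651-95049677): gtgtcctgccCAGTGTTtgtaaataag
The *Fosb* match starts at base 951 of a 2302-base UTR, the *Jun* matches at bases 327 and 600 of 1233 bases, and the *Atf3* matches at bases 1069 and 1136 of 1186 bases. No match was found in the UTRs of *Fos*, *Fosl1*, *Fosl2*, *Junb*, *Jund*, *Egr1* and *Ier2*.

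Values are in CPM (counts scaled to a fixed library total), brought by the authors to nearly the same total in each sample, so the depth of each sample is unknown. A log2 fold-change is CAF-200 minus CAF-vec on log2(CPM + 0.5), which understates the change of genes with low values. Each adjusted *p* comes from limma, with the Benjamini-Hochberg method applied across the 12175 genes tested, and SE is the standard error of a log2 fold-change. A gene was called at an adjusted *p* under 0.01 with a log2 fold-change beyond 1, the thresholds the study used, and a second rule required only an adjusted *p* under 0.05. Between the CAF-vec samples 499 genes differed by more than 1 log2 unit, against 36 to 46 genes between pairs of CAF-200 samples. The median log2 fold-change of all tested genes was -0.09. *Zeb1*, a textbook miR-200 target, was 43.5 and 50.7 CPM in CAF-vec and 37.8, 37.5 and 34.1 CPM in CAF-200 (-0.36 on the log2 scale, adjusted *p* = 0.0504). *Zeb2*, another such target, was 46.2 and 29.8 CPM in CAF-vec and 31.9, 31.8 and 31.1 CPM in CAF-200, so its groups overlapped. The miRNAs themselves were not analysed here. The 9 fibroblast markers summed to 7457 and 14148 CPM (CAF-vec) and 6609 to 7302 CPM (CAF-200), and 3 of them (*Thy1*, *Lum* and *Dcn*) were called higher. Of the others, *Col1a1* (-0.91 on the log2 scale), *Col1a2* (-0.75) and *Pdgfrb* (-0.25) were lower in every CAF-200 sample than in both CAF-vec samples without being called. *Col3a1* (1.02, adjusted *p* = 0.0542) was higher in every CAF-200 sample, also without being called. The median of the 9 was -0.20. The 6 epithelial markers were all under 0.5 CPM in every sample, with *Krt18* and *Sftpc* at 0. The 4 endothelial markers summed to 0.167 and 1.06 CPM (CAF-vec) and 0.223 to 0.508 CPM (CAF-200). The 5 leukocyte and macrophage markers summed to 8.34 and 9.31 CPM (CAF-vec) and 12.2 to 12.8 CPM (CAF-200), with *Adgre1* at 0 in every sample. Of these, *Lyz2* was called higher, at 1.11 and 1.99 CPM in CAF-vec and 7.48, 7.16 and 6.48 CPM in CAF-200 (1.91 on the log2 scale, adjusted *p* = 0.00395), while *Csf1r* (-0.46) and *Cd68* (-0.14) overlapped between the groups. The part of other cell types in the results was not tested.

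The members did not move as a group. *Fosl1* was called higher in CAF-200, and no member was called lower, against 2.37% of the tested genes called higher and 2.35% called lower. At an adjusted *p* under 0.05, *Fos*, *Fosl1*, *Junb* and *Egr1* were higher (4 of 10, against 11.9% of the tested genes) and *Fosl2*, *Jund* and *Atf3* were lower (3 of 10, against 18.6%). At an unadjusted *p* under 0.05, which 5469 of the 12175 tested genes had in either direction, the counts of members were also 3 lower and 4 higher. These 7 members were also those whose groups did not overlap, which held for 24.3% of the tested genes in the higher direction and 37.3% in the lower. *Fosb*, *Jun* and *Ier2* overlapped between the groups. The median log2 fold-change of the 10 members was 0.01, with 5 above 0 and 5 below. It was 0.27 without CAF-vec 1, -0.24 without CAF-vec 2 and 0.32 after the adjustment for GC content. Since the RNA came from whole cultures, fewer expressing cells and less RNA per cell cannot be told apart in any of these values.

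**Figure D1:**
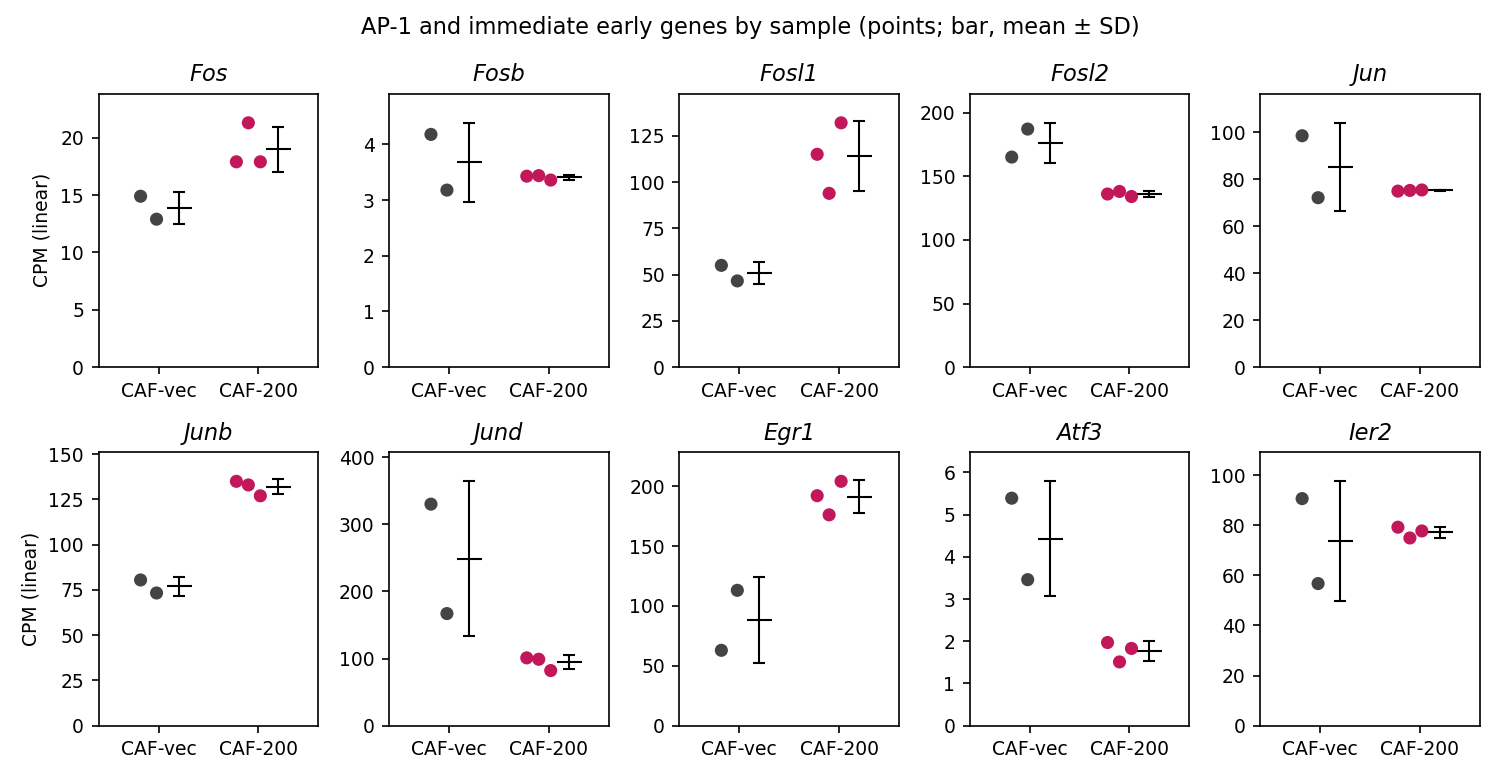
Each panel plots 1 gene in CPM on a linear axis from 0, with CAF-vec samples in grey (n = 2), CAF-200 samples in magenta (n = 3) and the mean ± SD beside the points. *Fosl1*, *Junb* and *Egr1* lie higher and *Jund*, *Atf3* and *Fosl2* lower in every CAF-200 sample, and the CAF-vec points of *Jund*, *Egr1* and *Ier2* lie far apart.

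Within the Fos family, *Fosl1* and *Fosl2* went in opposite directions. *Fosl1* (ENSMUSG00000024912, chromosome 19 of GRCm38, 5447547 to 5455946, plus strand) encodes Fra-1, a Fos protein known from growing and invasive cells. It was 55.0 and 46.6 CPM in CAF-vec and 115, 93.9 and 132 CPM in CAF-200. All 3 CAF-200 samples were above both CAF-vec samples, and the lowest of them was CAF-200 2. The mean was 50.8 ± 5.99 CPM in CAF-vec (SD, n = 2) and 114 ± 19.0 CPM in CAF-200 (SD, n = 3), a ratio of 2.24 and 1.15 on the log2 scale (SE 0.166, adjusted *p* = 0.00771). It stayed under an adjusted *p* of 0.05 in all 14 alternatives, with log2 fold-changes from 1.03 to 1.47. Without CAF-200 1, 2 or 3 the adjusted *p* was 0.0424, 0.0261 or 0.0414, above the 0.01 required for a call. The call was also lost with no filter (adjusted *p* = 0.0139) and with the replicate number as a block (adjusted *p* = 0.018). The exons of *Fosl1* share 1163 bases with those of *Ccdc85b* on the opposite strand. *Ccdc85b* was 34.9 and 15.0 CPM in CAF-vec and 18, 15.3 and 17.1 CPM in CAF-200, so it overlapped between the groups (log2 fold-change -0.44, adjusted *p* = 0.351).

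*Fosl2* (ENSMUSG00000029135, chromosome 5, 32135801 to 32157842, plus strand) encodes Fra-2, the other late Fos protein. It was 165 and 187 CPM in CAF-vec and 136, 138 and 134 CPM in CAF-200. Every CAF-200 sample was below both CAF-vec samples, and the CAF-200 samples were close together. The mean was 176 ± 15.9 CPM in CAF-vec (SD, n = 2) and 136 ± 2.46 CPM in CAF-200 (SD, n = 3), or -0.37 on the log2 scale (SE 0.0943, adjusted *p* = 0.0342). This was the smallest change past an adjusted *p* of 0.05 among the members. The adjusted *p* was 0.16 after quantile normalization, 0.102 after centring on each sample's median, 0.163 after the adjustment for GC content and 0.129 to 0.148 without 1 of the CAF-200 samples.

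*Fos* (ENSMUSG00000021250, chromosome 12, 85473890 to 85477273, plus strand), the classic serum-response gene, was 14.9 and 12.9 CPM in CAF-vec and 17.9, 21.3 and 17.9 CPM in CAF-200. The groups did not overlap, although the nearest samples, CAF-vec 1 and the lower CAF-200 samples, were only 3 CPM apart. The log2 fold-change was 0.43 (SE 0.124, adjusted *p* = 0.0469). The adjusted *p* was 0.112, 0.157 and 0.122 without CAF-200 1, 2 and 3, 0.0704 with no filter and 0.0523 with no variance trend, all above 0.05. *Fosb* (ENSMUSG00000003545, chromosome 7, 19302696 to 19310051, minus strand), which encodes a partner of Jun induced along with Fos, was 4.18 and 3.18 CPM in CAF-vec and 3.43, 3.44 and 3.36 CPM in CAF-200. All CAF-200 values of *Fosb* lay between the CAF-vec values (-0.08 on the log2 scale, SE 0.141, adjusted *p* = 0.67).

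Levels of different genes were compared per kilobase of the longest coding transcript. In CAF-vec, *Fosl1* (27.2 ± 3.22 CPM per kb, SD, n = 2) and *Fosl2* (27.0 ± 2.43) stood at the same level within their spread, above *Fos* (6.60 ± 0.671) and *Fosb* (0.972 ± 0.187). In CAF-200 the order was *Fosl1* (61.0 ± 10.2, SD, n = 3), *Fosl2* (20.8 ± 0.376), *Fos* (9.02 ± 0.928) and *Fosb* (0.902 ± 0.0113), with no overlap between neighbours. The ratio of *Fosl1* to *Fosl2* per kb was 1.17 and 0.871 in the CAF-vec samples and 2.97, 2.38 and 3.46 in the CAF-200 samples. *Fosl1* thus made up 46.9% and 41.2% of the summed Fos family level in CAF-vec and 67.2%, 61.0% and 70.4% in CAF-200. The share of *Fosl2* was 40.1% and 47.3% in CAF-vec and 22.6%, 25.7% and 20.3% in CAF-200. The share of *Fos* overlapped between the groups, at 8.44% to 12.2%. The summed level of the 4 genes was 62.9 and 60.6 CPM per kb in CAF-vec and 92.0, 82.6 and 101 CPM per kb in CAF-200.

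In the Jun family, *Junb* was higher and *Jund* lower in CAF-200 under the second rule. *Junb* (ENSMUSG00000052837, chromosome 8, 84974484 to 84978718, minus strand), whose longest coding transcript has a single exon and whose protein can restrain c-Jun, was 80.5 and 73.3 CPM in CAF-vec and 135, 133 and 127 CPM in CAF-200. Both groups were tight and did not overlap. The mean was 76.9 ± 5.09 CPM in CAF-vec (SD, n = 2) and 132 ± 4.12 CPM in CAF-200 (SD, n = 3), or 0.78 on the log2 scale (SE 0.0888, adjusted *p* = 0.00458), the lowest adjusted *p* of the members but short of the fold-change threshold. It stayed under 0.05 in all 14 alternatives. After the adjustment for GC content its log2 fold-change was 1.22 (adjusted *p* = 0.00234), past both thresholds. *Junb* shares 173 exon bases with *Prdx2* on the opposite strand, which was 247 and 264 CPM in CAF-vec and 316, 300 and 315 CPM in CAF-200 (0.28 on the log2 scale, adjusted *p* = 0.0645).

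*Jund* (ENSMUSG00000071076, chromosome 8, 70698949 to 70700616, plus strand), a single-exon gene whose protein is associated with quiescence, was 330 and 167 CPM in CAF-vec and 101, 98.9 and 82.1 CPM in CAF-200. Every CAF-200 sample was below both CAF-vec samples, and CAF-vec 1 was about a log2 unit (0.98) above CAF-vec 2. The mean was 249 ± 115 CPM in CAF-vec (SD, n = 2) and 94.2 ± 10.5 CPM in CAF-200 (SD, n = 3), or -1.32 on the log2 scale (SE 0.289, adjusted *p* = 0.0221). The log2 fold-change was -0.83 without CAF-vec 1, -1.81 without CAF-vec 2 and -0.74 after the adjustment for GC content. The adjusted *p* was 0.0681, 0.0754 and 0.0938 without CAF-200 1, 2 and 3. *Jund* shares 877 exon bases with the antisense gene *Gm11175*, which was not analysed here.

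*Jun* (ENSMUSG00000052684, chromosome 4, 95049034 to 95052222, minus strand), which encodes c-Jun, was 98.6 and 72.2 CPM in CAF-vec and 75.0, 75.3 and 75.5 CPM in CAF-200. The CAF-200 samples lay within 1 CPM of each other and between the CAF-vec samples (-0.16 on the log2 scale, SE 0.143, adjusted *p* = 0.408). The value was 0.06 without CAF-vec 1 and -0.39 without CAF-vec 2, so its sign depended on which CAF-vec sample was kept. *Jun* shares 232 exon bases with the antisense gene *Junos*, not analysed here. The libraries were prepared with a stranded kit, and whether strand was used in counting is not given in the sources used here, so for *Fosl1*, *Junb*, *Jund* and *Jun* reads of the opposite gene may be included.

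Per kilobase, *Jund* was the highest of the 10 members in CAF-vec (149 ± 69.1 CPM per kb, SD, n = 2). It was followed by *Ier2* (48.4 ± 15.7) and *Junb* (42.5 ± 2.82), which overlapped, then by *Fosl1*, *Fosl2*, *Jun* (26.8 ± 5.85) and *Egr1* (19.6 ± 7.96), where each neighbour overlapped the next, and at the bottom by *Fos*, *Atf3* (2.23 ± 0.688) and *Fosb*, which were apart. In CAF-200 *Junb* (72.9 ± 2.28 CPM per kb, SD, n = 3), *Fosl1*, *Jund* (56.5 ± 6.32) and *Ier2* (50.8 ± 1.42) came first, each overlapping the next, followed without overlap by *Egr1* (42.5 ± 3.05), *Jun* (23.6 ± 0.0912), *Fosl2* and *Fos*, with *Fosb* and *Atf3* (0.892 ± 0.12) overlapping at the bottom.

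Within the Jun family the shares of the summed level, which were not adjusted for GC content, differed between the groups. The ratio of *Junb* to *Jund* per kb was 0.225 and 0.405 in CAF-vec and 1.23, 1.24 and 1.43 in CAF-200. *Junb* made up 16.3% and 24.8% of the summed Jun family level in CAF-vec and 47.0%, 47.1% and 49.1% in CAF-200. *Jund* made up 72.4% and 61.3% in CAF-vec and 38.3%, 37.9% and 34.4% in CAF-200. The ratio of *Junb* to *Jun*, which leaves *Jund* aside, was 1.44 and 1.79 in CAF-vec and 3.18, 3.12 and 2.97 in CAF-200. The summed level of the 3 genes was 273 and 163 CPM per kb in CAF-vec and 159, 157 and 143 CPM per kb in CAF-200, and CAF-vec 2 was much nearer to CAF-200 than to CAF-vec 1.

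**Figure D2:**
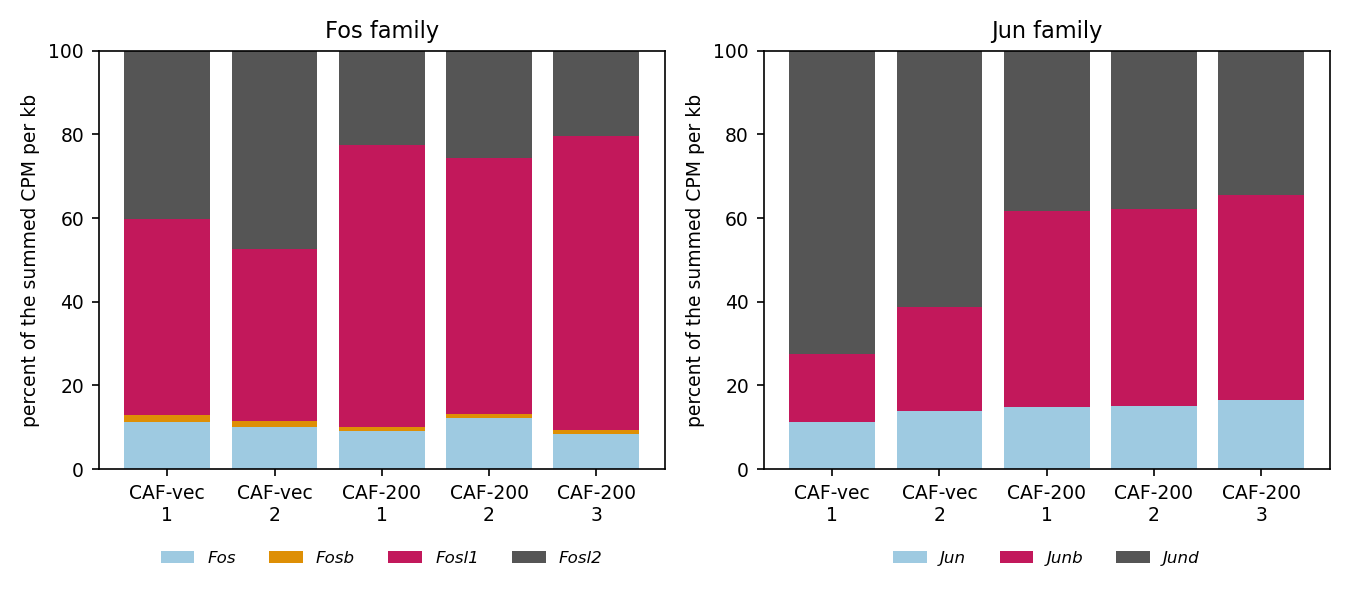
Stacked bars give each gene's percent of the summed CPM per kb of the Fos family (left) and the Jun family (right) in each of the 5 samples, on an axis from 0 to 100. *Fosl1* takes 61.0% to 70.4% of the Fos family in CAF-200 against 41.2% and 46.9% in CAF-vec, and *Junb* 47.0% to 49.1% of the Jun family against 16.3% and 24.8%.

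The members outside both families were *Egr1*, *Atf3* and *Ier2*. *Egr1* (ENSMUSG00000038418, chromosome 18), a zinc finger factor induced through serum response elements, was 62.9 and 113 CPM in CAF-vec and 192, 176 and 204 CPM in CAF-200. All CAF-200 samples were above both CAF-vec samples, and CAF-vec 2 was 0.85 log2 units above CAF-vec 1. The mean was 88.1 ± 35.7 CPM in CAF-vec (SD, n = 2) and 191 ± 13.7 CPM in CAF-200 (SD, n = 3), or 1.17 on the log2 scale (SE 0.247, adjusted *p* = 0.0199). It was 0.74 without CAF-vec 1 and 1.59 without CAF-vec 2, and the adjusted *p* was 0.0724, 0.0689 and 0.0887 without CAF-200 1, 2 and 3. The log2 fold-changes of *Egr1* and *Fosl1* (1.17 and 1.15) were alike, and their CAF-vec samples were not: the CAF-vec samples of *Fosl1* differed by 0.24 log2 units.

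*Atf3* (ENSMUSG00000026628, chromosome 1, 191170296 to 191218039, minus strand), a stress-induced partner of Jun proteins that often represses, was 5.39 and 3.46 CPM in CAF-vec and 1.97, 1.51 and 1.83 CPM in CAF-200. The groups did not overlap. The mean was 4.43 ± 1.36 CPM in CAF-vec (SD, n = 2) and 1.77 ± 0.238 CPM in CAF-200 (SD, n = 3), or -1.10 on the log2 scale (SE 0.208, adjusted *p* = 0.015). The log2 fold-change ranged from -1.38 to -0.81 over the 14 alternatives, and the adjusted *p* was 0.0519, 0.0656 and 0.067 without CAF-200 1, 2 and 3. *Atf3* was the member with both kinds of seed match that was lower in CAF-200, while *Jun*, which also has both, overlapped between the groups.

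*Ier2* (ENSMUSG00000053560, chromosome 8, 84661331 to 84662852, minus strand), a single-exon immediate early gene, was 90.6 and 56.7 CPM in CAF-vec and 79.2, 74.9 and 77.7 CPM in CAF-200. The CAF-200 samples lay between the CAF-vec samples (0.11 on the log2 scale, SE 0.197, adjusted *p* = 0.696). Its direction turned with the CAF-vec sample, at 0.44 without CAF-vec 1 and -0.23 without CAF-vec 2. After the adjustment for GC content it was 0.50 (adjusted *p* = 0.026). *Egr1* over *Ier2* per kb was 0.236 and 0.678 in CAF-vec and 0.822, 0.799 and 0.890 in CAF-200.

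**Figure D3:**
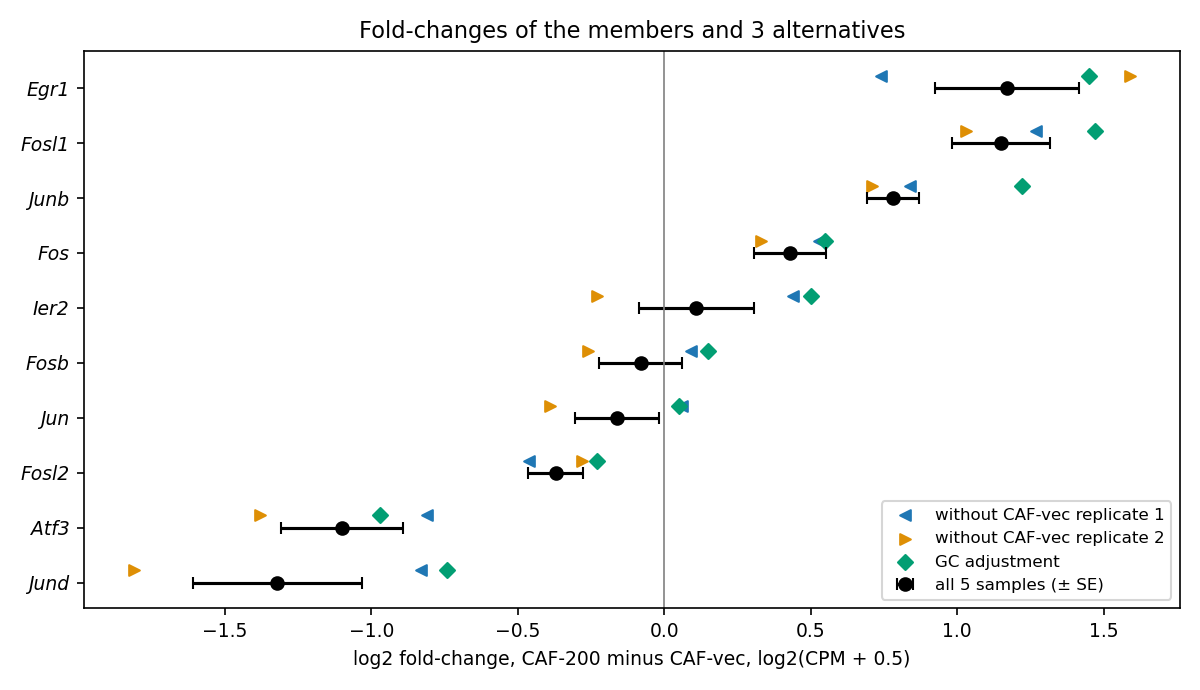
Black points are log2 fold-changes (CAF-200 minus CAF-vec on log2(CPM + 0.5)) with their standard errors from all 5 samples, triangles are the values without 1 CAF-vec sample and diamonds those after the adjustment for GC content. *Fosl1*, *Junb*, *Egr1* and *Fos* stay above 0 and *Jund*, *Atf3* and *Fosl2* below 0 at every symbol, while *Ier2*, *Fosb* and *Jun* cross 0.

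The difference between the CAF-vec samples moved with the GC content of the transcript. CAF-vec 1 was higher than CAF-vec 2 by a median of 0.66 log2 units over the 55 tested genes above 65% GC and by 0.38 over the 553 genes from 60% to 65%, and lower by a median of 0.20 over the 623 genes up to 40%. The median log2 fold-change was -0.51, -0.43 and 0.13 in the same bins. *Jund* has 67.1% GC, more than 99.8% of the tested genes, and the 50 tested genes within 2 points of it had a median log2 fold-change of -0.52 against -1.32 for *Jund*. *Junb* has 62.6% GC, and the 403 genes within 2 points of it had a median of -0.43 against 0.78 for *Junb*. *Ier2* has 60.9% GC, and the 805 genes around it had a median of -0.40 against 0.11. The other members have between 51.9% (*Fos*) and 58.5% GC (*Fosl1*). With a smooth curve against GC content removed from each sample, a step added after the data were seen, the log2 fold-changes were -0.74 for *Jund* (adjusted *p* = 0.0159), 1.47 for *Fosl1* (adjusted *p* = 0.00312), 1.45 for *Egr1* (adjusted *p* = 0.0184), 0.55 for *Fos* (adjusted *p* = 0.0206), -0.97 for *Atf3* (adjusted *p* = 0.0151) and -0.23 for *Fosl2* (adjusted *p* = 0.163). The part of GC content in these differences was not tested.

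**Figure D4:**
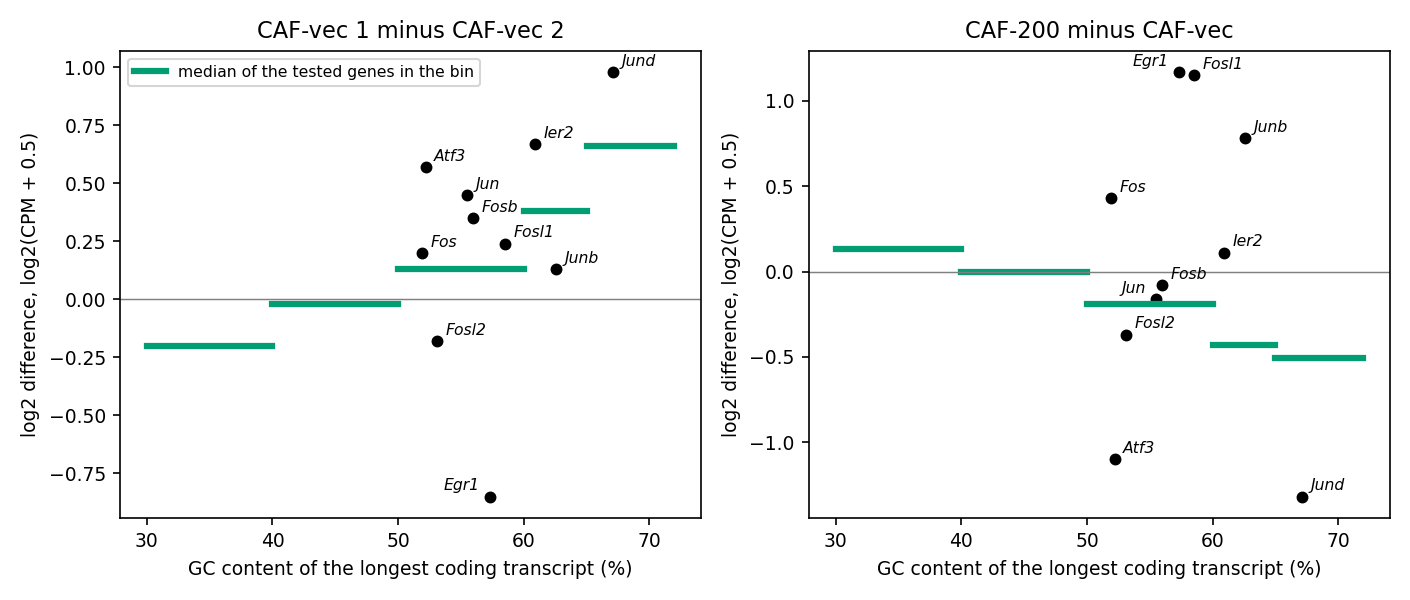
The x axis is the GC content (%) of the longest coding transcript and the y axis the log2 difference between the CAF-vec samples (left) or between CAF-200 and CAF-vec (right), with the 10 members as points and the medians of all tested genes in 5 GC bins as green bars. *Jund* lies furthest right and above the bars on the left and below them on the right, and *Junb*, *Fosl1* and *Egr1* lie above the bars on the right.

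In the promoters, from 250 bases before to 50 bases after the RefSeq start, 7 of the 10 members had an entry, all but *Fosl1*, *Egr1* and *Ier2*. The AP-1 site (TGAGTCA or TGACTCA, read on both strands), the cyclic AMP response element (CRE, TGACGT followed by CA) and the CArG box bound by serum response factor (CC and GG around 6 letters that are A or T) were not found in these 7 windows, and they occur in 5.2%, 1.79% and 1.63% of the 32851 promoters. Only exact matches were sought, so variant sites and sites more than 250 bases before the start are not covered. Their absence here does not show that a gene lacks such an element. The CRE core (TGACGT or ACGTCA, which the full CRE contains), chosen after the sequences were seen, was in *Fos* and *Atf3*, and in 7.51% of all promoters. Both promoters are printed 5′ to 3′ on GRCm38.p6 with the core in capitals, because *Fos* and *Atf3* hold the same core and differed in direction. The core lies at -66 to -61 in *Fos* and at -8 to -3 in *Atf3*, and the *Atf3* window lies within the span of the annotated gene, as does that of *Fosl2*. The *Jund* window ends at 70697788, before the annotated gene begins, so it does not describe the start of the transcript used here.
*Fos* promoter (chr12:85473640-85473939, plus strand): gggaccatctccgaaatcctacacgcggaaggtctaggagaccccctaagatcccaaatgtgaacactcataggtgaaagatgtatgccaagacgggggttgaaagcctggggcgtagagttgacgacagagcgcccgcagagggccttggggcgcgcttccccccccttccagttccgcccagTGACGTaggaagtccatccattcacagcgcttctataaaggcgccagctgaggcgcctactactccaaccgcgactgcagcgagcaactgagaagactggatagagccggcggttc
*Atf3* promoter (chr1:191183284-191183583, minus strand): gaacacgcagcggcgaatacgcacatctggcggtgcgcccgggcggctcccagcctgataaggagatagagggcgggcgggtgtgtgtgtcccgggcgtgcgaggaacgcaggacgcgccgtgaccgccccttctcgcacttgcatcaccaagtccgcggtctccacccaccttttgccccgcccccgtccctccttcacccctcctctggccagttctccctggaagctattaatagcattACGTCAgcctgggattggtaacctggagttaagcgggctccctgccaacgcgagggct

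The other lists around AP-1 were set beside the members with the same fit. They were drawn up with earlier results of these data known, so they are described by counts and not tested as sets. Over all tested genes, 2.37% were called higher and 2.35% lower, and 11.9% were higher and 18.6% lower under the second rule. Of the 11 other AP-1 and small Maf genes, which pair with or compete with Fos and Jun proteins, 8 were tested and none was called. Under the second rule, 3 were lower, *Maf* and *Mafk* among them, and none was higher. The counts at an unadjusted *p* under 0.05, which 5469 of the 12175 tested genes had in either direction, were also 3 and 0. The median log2 fold-change was -0.31. *Mafk* was 62.8 and 47.6 CPM in CAF-vec and 35.7, 36.0 and 33.8 CPM in CAF-200 (-0.63 on the log2 scale, adjusted *p* = 0.0203). It was -0.39 after the adjustment for GC content, and the adjusted *p* was 0.0785, 0.0792 and 0.095 without CAF-200 1, 2 and 3. *Jdp2*, a Jun dimerization partner (log2 fold-change -0.21, adjusted *p* = 0.113), and *Mafg* (-0.41, adjusted *p* = 0.14) did not pass.

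Of 39 other immediate early genes, 37 were tested, 3 were called higher (*Egr2*, *Nr4a2* and *Klf10*) and none lower, against 2.37% and 2.35% of the tested genes. Under the second rule, 13 were higher and 6 lower, against 11.9% and 18.6% of the tested genes. The median log2 fold-change was 0.27 (0.31 without CAF-vec 1, 0.16 without CAF-vec 2 and 0.41 after the adjustment for GC content). *Egr2*, a relative of *Egr1*, was 5.33 and 5.73 CPM in CAF-vec and 13.6, 12.9 and 15.4 CPM in CAF-200, or 1.26 on the log2 scale (adjusted *p* = 0.003). The CAF-vec samples were close together, unlike those of *Egr1*. *Nr4a2*, an orphan nuclear receptor, was 3.85 and 4.34 CPM in CAF-vec and 9.55, 8.58 and 12 CPM in CAF-200 (1.19 on the log2 scale, adjusted *p* = 0.00709). *Klf10*, known as a TGF-β-inducible early gene, was 10.7 and 14.1 CPM in CAF-vec and 30.7, 28.3 and 35.7 CPM in CAF-200 (1.32 on the log2 scale, adjusted *p* = 0.00523). All 3 calls were lost with any of the CAF-200 samples left out, where the list had 0 calls. At an unadjusted *p* under 0.05, 13 or 14 of its genes were then higher and 6 lower. Of the 12175 tested genes, 3821 to 4065 then passed in either direction. The 6 lower genes, named after their values were seen, were *Nr4a3*, *Klf2*, *Klf4*, *Klf6*, *Gadd45b* and *Per1*, and *Nr4a3* passed the filter only through CAF-vec (1.11 and 1.32 CPM, against 0.282, 0.432 and 0.392 CPM in CAF-200). Thus 3 Krüppel-like factors that are themselves induced by serum or flow went opposite to *Klf10*. Among the most abundant members of the list, the matricellular gene *Ccn1* stood at 0.78 on the log2 scale (adjusted *p* = 0.00755), the kinase gene *Sgk1* 0.36 (adjusted *p* = 0.0752) and *Ccn2* 0.27 (adjusted *p* = 0.214).

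Of 31 genes of the upstream path, the Ras, MAP kinase and Rsk genes and the SRF, TCF and CREB factors that switch on immediate early genes, 30 were tested and none was called in either direction. At an adjusted *p* under 0.05, 3 were lower (*Map2k2*, *Mapk7* and *Map3k1*) and *Rps6ka5* was higher, against 18.6% and 11.9% of the tested genes. At an unadjusted *p* under 0.05, which 5469 of the 12175 tested genes had in either direction, the counts were 3 and 2. The median log2 fold-change was -0.06 and changed sign with the scaling, to 0.05 after quantile normalization, 0.03 after centring and 0.04 after the adjustment for GC content. *Map2k2*, which encodes the ERK kinase MEK2, was 465 and 312 CPM in CAF-vec and 233, 215 and 204 CPM in CAF-200 (-0.81 on the log2 scale, adjusted *p* = 0.0241). It was -0.52 without CAF-vec 1 and -0.43 after the adjustment for GC content, and the adjusted *p* was 0.0738, 0.093 and 0.104 without CAF-200 1, 2 and 3. *Mapk3*, which encodes an ERK kinase, did not pass (log2 fold-change -0.22, adjusted *p* = 0.133).

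The highest median of the 5 lists was that of known AP-1 targets of fibroblasts. Of 21 genes, 16 were tested and 8 were called higher (against 2.37% of the tested genes), all of them secreted, surface or stress-response genes. The median log2 fold-change was 1.34 (0.99 without CAF-vec 1 and 1.65 without CAF-vec 2). By the second rule, 13 were higher and only the metallothionein gene *Mt1* was lower, against 11.9% and 18.6% of the tested genes. *Timp1*, an inhibitor of matrix metalloproteinases, was 246 and 296 CPM in CAF-vec and 2208, 2055 and 2587 CPM in CAF-200, or 3.07 on the log2 scale (adjusted *p* = 9.6e-04). *Spp1*, which encodes osteopontin, was 302 and 340 CPM in CAF-vec and 1848, 1744 and 2024 CPM in CAF-200, or 2.54 on the log2 scale (adjusted *p* = 9.3e-04). In both genes the CAF-200 samples were several times above the CAF-vec samples. The chemokine gene *Ccl2* was 15.7 and 32.0 CPM in CAF-vec and 114, 125 and 101 CPM in CAF-200 (2.31 on the log2 scale, adjusted *p* = 0.0057). *Mt2* (log2 fold-change 1.66), the EGF receptor ligand *Ereg* (1.59), *Hmox1* (1.31) and *Cd44* (1.13) were also called, with adjusted *p* values from 0.00569 to 0.00899.

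The AP-1 target list was not uniform. *Mt1* was 203 and 249 CPM in CAF-vec and 123, 119 and 111 CPM in CAF-200 (-0.93 on the log2 scale, adjusted *p* = 0.0058), whereas *Mt2* was 2.25 and 3.06 CPM in CAF-vec and 7.53, 9.43 and 11.5 CPM in CAF-200. The neighbouring metallothionein genes thus had opposite signs, at very different levels. The matrix metalloproteinase genes *Mmp3*, *Mmp9*, *Mmp10* and *Mmp13*, textbook AP-1 targets, and *Areg* were below the level required for testing, under 0.5 CPM in every sample. *Ccnd1* (log2 fold-change 0.15) and *Plau* (0.14) overlapped between the groups. With 1 CAF-200 sample left out the list had 0 calls, and 13 of its genes were then higher at an unadjusted *p* under 0.05. Of the 12175 tested genes, 3821 to 4065 then passed in either direction. That these genes rose does not show that AP-1 acted on them, which was not measured.

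**Figure D5:**
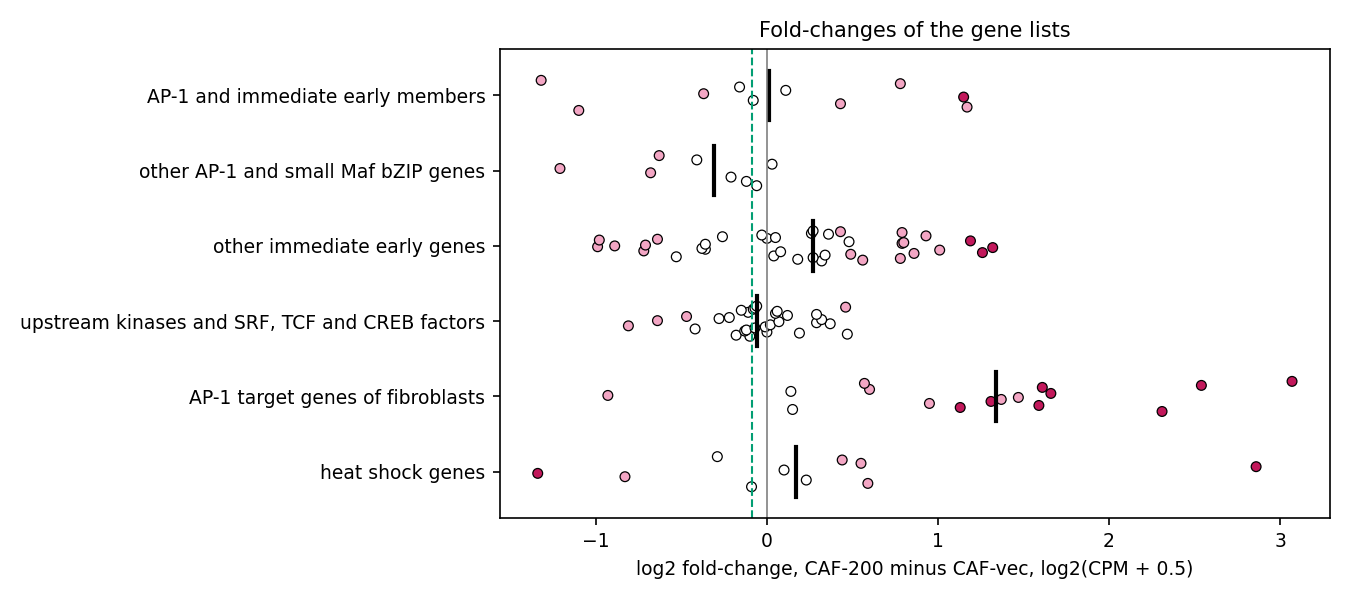
Each point is a tested gene placed by its log2 fold-change (CAF-200 minus CAF-vec on log2(CPM + 0.5)), filled magenta when called, pale pink at an adjusted *p* under 0.05 alone and white otherwise, with black bars for list medians and a dashed green line for the median of all tested genes (-0.09). The AP-1 targets lie furthest right (median 1.34), and the 10 members spread to both sides (median 0.01).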

How the data were processed

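RNA of 5 samples of murine lung CAFs (2 CAF-vec, 3 CAF-200) was sequenced from libraries made with a stranded mRNA kit. The table deposited by the authors holds normalized CPM values, in a file whose name points to TMM scaling, and the submitters' processing notes name FastQC, cutadapt, Trimmomatic, STAR, RSEM and edgeR, without versions, and the builds GRCm38 and mm10. Columns summed to between 999956 and 1000111 CPM and the values are not whole reads, so the depth is unknown and no count test was run. All 5 columns matched a sample, and 0 did not.

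Genes reaching 0.5 CPM in 2 or more samples (12175 of 21835) entered 1 limma fit of all samples (lmFit and trended eBayes, version 3.58.1, R 4.3.3) on log2(CPM + 0.5), without a block, and *p* values were adjusted by Benjamini and Hochberg's method. The fit was also run on simulated data with the same spread in both groups. The 2 groups here differ in spread, so that run does not check the fit under this condition. Identifiers were named, placed and measured for length, exons, 3′-UTRs and GC content with GENCODE M21, and miRNA and promoter sequences came from RefSeq. Tables were handled in Python 3.11.15 with pandas 2.3.3 and drawn with matplotlib 3.10.9.

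The members and the gene lists were chosen with earlier results of these data known. Besides the members, *Zeb1* and *Zeb2*, the genes named were, of each list, those past both thresholds (where over 8 were, the 4 largest falls and rises) and up to 3 with the highest mean CPM, and the 5 genes most like *Fos* and most like the member with the largest change. The other genes named were chosen after their values were seen, or because they overlap a member, and some genes that the rule names are not reported here. Alternatives were pseudocounts of 1 and 0.1, no filter, a filter of 1 CPM in all samples, quantile normalization, median centring of the samples, an untrended eBayes, the replicate number as a block, each sample left out in turn, an adjusted *p* of 0.05 alone and, added after the data were seen, removal of a lowess curve (span 0.3) against GC content. With 1 CAF-vec sample left out, the lone sample is assumed to vary like the other group.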

Additional observations from a re-analysis of the deposited data

How the results depend on the processing

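Unknown depth, only 2 CAF-vec samples and their difference in GC-rich genes limit these results. *Fosl1*, *Fos*, *Junb*, *Egr1*, *Fosl2*, *Jund* and *Atf3* kept their direction in all 14 alternatives. For 39 genes (the members, *Zeb1* and *Zeb2*, the genes the rule takes from the lists and those overlapping a member on the opposite strand, without the genes most like *Fos* and *Jund*), 475 fold-changes under the alternatives kept direction and side of the adjusted *p* of 0.05, 39 lost it, 21 gained it and 10 changed sign: *Fosb* (0.01 after centring, 0.15 after the adjustment for GC content, -0.26 to 0.09 without 1 sample), *Jun* (0.05 with GC content, -0.39 to 0.06), *Jdp2* (0.05 with GC content), *Mapk3* (0.07 with GC content), and, without 1 sample, *Ier2* (-0.23 to 0.44), *Zeb2* (-0.54 to 0.08) and *Ccdc85b* (-1.04 to 0.16). The causes were not tested.

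The 286 lower and 289 higher calls over all genes became 191 and 348 after the adjustment for GC content, 228 and 365 after centring and 262 and 343 after quantile normalization. At an adjusted *p* of 0.05 alone they were 2265 and 1446. Without 1 sample they ranged from 0 to 955 lower and 0 to 625 higher, and where limma called 0 or 1, with 1 of the CAF-200 samples omitted, 3821 to 4065 genes had an unadjusted *p* under 0.05. Without 1 sample, the members called were 0 to 2 lower and 0 to 2 higher, and those past the adjusted *p* of 0.05 were 0 to 5 lower and 2 to 5 higher. Without CAF-vec 2, *Jund*, *Atf3*, *Fosl1* and *Egr1* passed both thresholds. The 1 member called higher became 0 with no filter, 2 with the adjustment for GC content and 4 at an adjusted *p* of 0.05 alone, where 3 were lower. In the lists, leaving out 1 sample gave 0 to 1 calls of other AP-1 and Maf genes, 0 to 6 of other immediate early genes, 0 to 1 of upstream genes, 0 to 10 of AP-1 targets and 0 to 3 of heat shock genes. At an adjusted *p* of 0.05 alone these were 3, 19, 4, 14 and 6. With no filter, other immediate early genes, AP-1 targets and heat shock genes had 1, 3 and 1 calls, and with at least 1 CPM in every sample heat shock genes had 1.

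The groups share only 2 replicate numbers, and the labels do not say that a number marks a shared culture. Deviations from the group means correlated at 0.25 for number 1 and 0.13 for number 2, and the 4 pairs that share no number at -0.25 to 0.12. With the replicate number as a block, which leaves CAF-200 3 out of the fold-change, 70 genes were called lower and 101 higher, and no member was called. At an unadjusted *p* under 0.05, 4 members were higher and 2 lower, and 4054 of the 12175 tested genes passed in either direction. In this fit *Fos* and *Fosl2* had adjusted *p* = 0.133 and 0.193, and the lists had 0 (other immediate early), 4 (AP-1 targets) and 1 (heat shock) calls.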

Other observations

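Heat shock genes, whose products fold proteins and which are induced by stress along with immediate early genes, did not move together. Of 10 tested, *Hspa1b* was called lower and *Hspb1* higher, against 2.35% and 2.37% of the tested genes. At an adjusted *p* under 0.05 there were 2 lower and 4 higher, against 18.6% and 11.9%. The median log2 fold-change of the list was 0.17. *Hspa1b*, an inducible HSP70 gene, was 74.5 and 52.2 CPM in CAF-vec and 26.2, 24.9 and 22 CPM in CAF-200, or -1.34 on the log2 scale (adjusted *p* = 0.00573). Its near-identical copy *Hspa1a*, which may share reads with it, was 8.57 and 6.22 CPM in CAF-vec and 3.66, 4.10 and 3.89 CPM in CAF-200. *Hspb1*, the small heat shock protein HSP27, was 0.303 and 0.389 CPM in CAF-vec and 6.98, 5.26 and 4.86 CPM in CAF-200, or 2.86 on the log2 scale (adjusted *p* = 0.0015). Both CAF-vec values are under the 0.5 CPM of the filter, which *Hspb1* passed only through CAF-200, and its log2 fold-change depends on the pseudocount, at 2.30 with 1 and 3.69 with 0.1. Among the most abundant, *Hspa8* (log2 fold-change 0.10, adjusted *p* = 0.581) and *Hsp90aa1* (0.23, adjusted *p* = 0.284) did not pass, and the mitochondrial chaperone gene *Hspd1* did at 0.05 (0.55, adjusted *p* = 0.0151).

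The 5 tested genes whose pattern over the 5 samples was most like that of *Fos* included *Gpr63*, *Sqor*, *Ccdc77* and *Pgm2l1*, with root mean square differences of 0.0493 to 0.0577 on the centred log2 scale. Those most like *Jund*, the member with the largest absolute log2 fold-change over all 5 samples without the adjustment for GC content, included *Zfp316*, *Gtpbp6*, *Gm1673* and *Gchfr* (0.0417 to 0.0733). *Gtpbp6* was 142 and 78.0 CPM in CAF-vec and 42.0, 40.5 and 35.7 CPM in CAF-200, so it too stood higher in CAF-vec 1 than in CAF-vec 2. These likenesses rest on 5 samples that share the same libraries.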
